A study of Mus musculus with 8 samples.

Results

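The 10 genes followed here encode carriers that move amino acids across the plasma membrane or, for Slc3a2, the heavy chain of several such carriers. They were measured in alveolar macrophages with and without Tfam. Slc7a11, Slc3a2, Slc7a5, Slc7a1, Slc7a2, Slc7a7, Slc1a4, Slc1a5, Slc38a2 and Slc6a9 make up the group. Slc3a2 is counted among the 10 carriers below. The genes were taken by name, and all 10 were found among the 12367 genes of the table. Tfam encodes the mitochondrial transcription factor A, which packages mitochondrial DNA and starts its transcription. The study compared 4 RNA-seq libraries of Tfam-fl/fl mice (WT), which carry the floxed gene with no Cre named, with 4 libraries of CD11c-Cre Tfam-fl/fl mice (KO). Each library came from a pool of 3 to 5 untreated mice, male, female or both, at the age of 3 weeks, and the cells were sorted from lung as CD45+ F4/80+ CD11c+ alveolar macrophages after enrichment on CD11c beads. The floxed alleles are shared by both groups, and Cre is driven by the promoter of CD11c, which dendritic cells and other CD11c+ cells use as well. A group with Cre and an unfloxed Tfam was not analysed here, so effects of Cre itself and of Tfam loss cannot be told apart.

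Amino acid carriers fall into families by the way they work. The Slc7 light chains (among them Slc7a5, Slc7a7 and Slc7a11) are exchangers that reach the cell surface bound to the heavy chain Slc3a2, also called CD98 or 4F2hc. Slc7a1 and Slc7a2 carry cationic amino acids without a heavy chain, whereas Slc1a4, Slc1a5, Slc38a2 and Slc6a9 depend on sodium. Several of these genes are known targets of ATF4, the transcription factor that is translated when amino acids are short or mitochondria are disturbed, and Slc7a11 is also a known target of NRF2, the regulator of the oxidative stress response. Alveolar macrophages live on the airway surface, where they clear surfactant and debris, and in macrophages the uptake of cystine, arginine and glutamine supplies glutathione, nitric oxide or ornithine, and fuel for the mitochondria.

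Depth was 24776683 to 29161957 reads in the listed genes of the WT libraries and 20243772 to 30263201 in those of the KO libraries, as read back from the deposited values. A floor of 3 reads corresponded to a value of 0.117 to 0.178, a limit that covers counting error only. Values are the deposited normalised read numbers, which are scaled to the size of each library and are not divided by gene length. Tfam fell from 30.3 ± 3.72 (SD, n = 4) to 4.35 ± 0.648 (SD, n = 4), a log2 fold change of -2.55 (SE 0.117, adjusted p = 1.02e-06), with no overlap between the groups. The first principal component separated the genotypes and held 63.8% of the variance, and the second (12.8%) separated both libraries numbered 4 from the rest. All 14 alveolar macrophage markers were listed, and their summed value ranged from 34014 to 36512 in WT and from 34197 to 39645 in KO, most of it from Chil3 (23528 ± 1334 and 27808 ± 2465). Within that list 7 markers fell, with the lowest p for Fabp1 (180 ± 16.1 to 11.2 ± 2.50), Siglecf (501 ± 37.6 to 194 ± 20.9), Ear2 (2245 ± 178 to 477 ± 111) and Ear1 (845 ± 112 to 123 ± 39.3). The 2 that rose were Itgax (CD11c, 1094 ± 48.5 to 2049.5 ± 202) and Car4. Adgre1, the gene of the sort marker F4/80, was among those that fell (476 ± 62.4 to 301 ± 22.8), so the genes of these 2 sort markers moved in opposite directions. Of 13 markers of interstitial macrophages and monocytes 11 were listed and 7 rose, with Itgam at 13.4 ± 2.50 in WT and 79.1 ± 14.3 in KO. The complement genes C1qa, C1qb and C1qc rose too, as did Ccr2 and Cx3cr1, and C1qc went from 2.68 ± 0.819 to 11.4 ± 6.55. The sum of the 11 markers ranged from 198 to 435 in WT and from 284 to 558 in KO, but much of it came from Nr4a1 (117 ± 80.1 and 58.9 ± 46.9) and Fcgr4 (117 ± 13.9 and 116 ± 7.91), which were not called. Their part in the transporter differences was not tested. In these bulk samples a change in the number of cells of a type and a change in RNA per cell cannot be told apart.

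Loss of Tfam went with more mRNA of most of the 10 carriers. Of the 10, 7 were higher in KO, the cystine/glutamate exchanger Slc7a11 most of all among those well detected (7.33-fold), and 1 was lower, the cationic and neutral amino acid exchanger Slc7a7 (1.46-fold). Slc7a5 and Slc1a5 did not pass the test, which was limma on log2(value + 1) with Benjamini-Hochberg adjusted p under 0.05. By this test 38.7% of the 12163 genes tested were called, 18.7% as higher and 20% as lower in KO. The 4 KO libraries lay above every WT library for 7 of the 10 carriers and below for 1, against 18.1% and 19.6% of all tested genes. The median log2 fold change was 0.97 over the 10 carriers, with a range from -0.53 to 2.86, and -0.01 over all tested genes. Slc1a4 and Slc6a9 had a value of at least 1 in 0 of 4 WT libraries and entered the test through the KO libraries alone. Their lack of overlap was fixed by that filter, and they are included in the counts of 7 and in the median above. Neither their calls nor their lack of overlap support a difference in the group of carriers. With a minimum value of 8, where both were left out, 5 carriers were called higher and 1 lower.

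**Figure D1:**
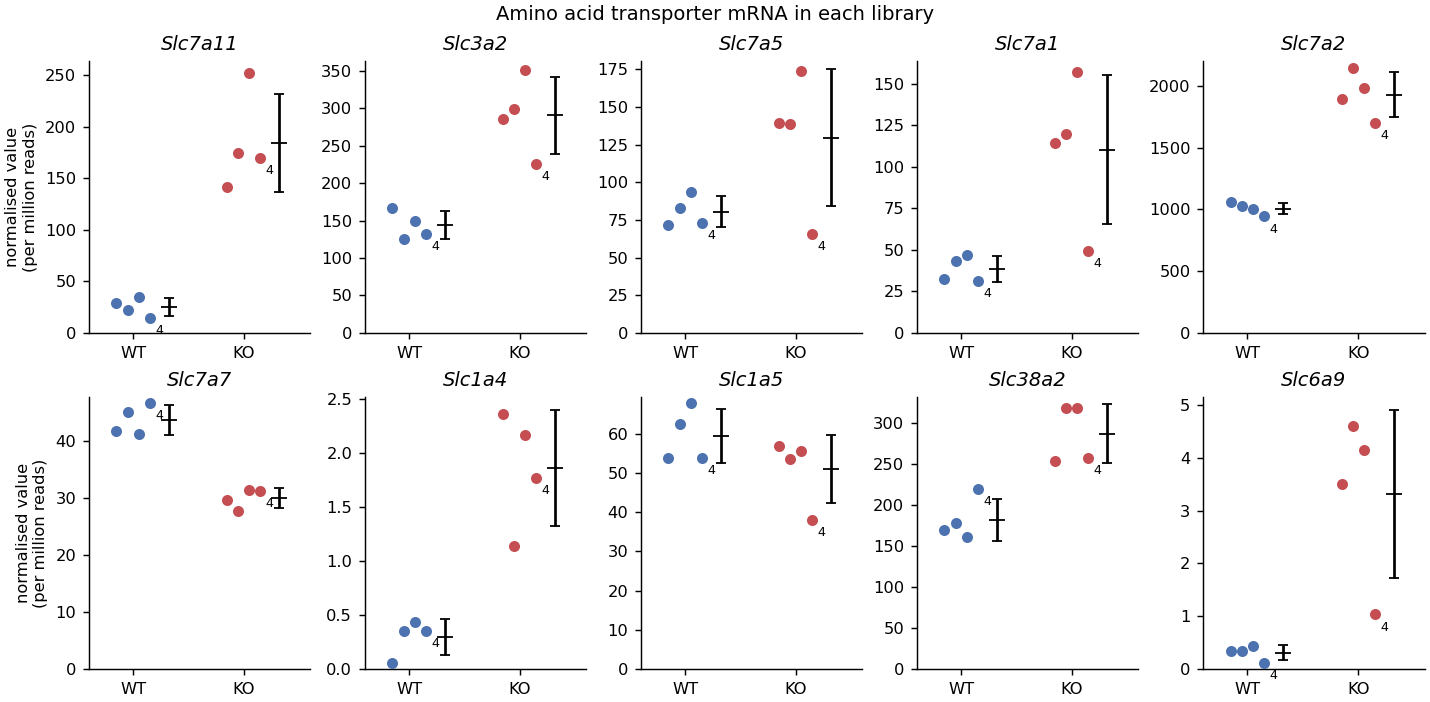
Normalised value (deposited scale, linear axis from 0) of each of the 10 carriers in the 4 WT (blue) and 4 KO (red) libraries, with the mean and SD beside the points and the libraries numbered 4 marked. In 7 panels the KO points lie above the WT points, Slc7a7 shows them below, and in the panels of Slc7a5 and Slc1a5 the groups overlap.

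Slc7a11 is the light chain of system xc-, which takes up cystine in exchange for glutamate. Its values were 28.9, 21.7, 35.2 and 14.7 in WT replicates 1 to 4 and 141, 174, 252 and 169.6 in KO replicates 1 to 4. The lowest KO library lay well above the highest WT library, and WT replicate 4 was the lowest of all 8. The means were 25.1 ± 8.85 and 184 ± 47.3 (SD, n = 4 each), and the log2 fold change was 2.86 (SE 0.252, 95% confidence interval 2.30 to 3.42, adjusted p = 2.83e-05). The gene (ENSMUSG00000027737) lies on the minus strand of GRCm38 at chr3:49892526-50443614.

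The stretch before the Slc7a11 start is shown because it holds 2 matches to the C/EBP-ATF composite element, the sequence that ATF4 is known to bind together with C/EBP proteins. It covers 250 bases upstream of the RefSeq start (GRCm38.p6, chr3:50443614-50443863, minus strand), written 5′ to 3′ in the direction of the gene. Capitals mark letters that match TGATGNAA or its reverse complement TTNCATCA.
Slc7a11: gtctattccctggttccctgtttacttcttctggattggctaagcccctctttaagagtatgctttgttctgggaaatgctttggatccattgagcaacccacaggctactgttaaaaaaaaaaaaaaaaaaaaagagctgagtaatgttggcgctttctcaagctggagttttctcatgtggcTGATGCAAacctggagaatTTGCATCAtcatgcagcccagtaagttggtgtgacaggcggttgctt
The first match begins 66 bases before the start and the second, on the opposite strand, 47 bases before it.

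Windows of 300 bases around a start, 250 before and 50 after, were at hand for 7 of the 10 carriers, with 14 windows in all. Slc7a5, Slc7a2 and Slc1a5 had no entry. The element TGATGNAA was matched on either strand in 3.97% of all 32851 windows, in 2.32% of the 11921 windows of genes in the table, and in 4 of the 14 windows of the carriers. Those 4 windows belonged to 3 of the 7 genes, and 2 of them were Slc7a7 windows that share a site. Beside Slc7a11 these were Slc1a4, which rose, and Slc7a7, which fell. Both stretches are shown since the same letters stood near the starts of genes that moved in opposite directions. They are given 5′ to 3′ with the matches in capitals, from chr11:20332700-20332727 and chr14:54417923-54417952, both on the minus strand.
Slc1a4: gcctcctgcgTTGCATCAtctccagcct
Slc7a7: tagaagcTGATGCAAcagcttccccgaggg
The antioxidant response element TGACNNNGC, the binding site of NRF2, was matched in 12.4% of all windows and in 14.5% of the windows of genes in the table. Among the carriers it was matched in 4 of the 14 windows, from 3 genes (Slc6a9, Slc7a1 and Slc38a2). Slc7a11 had no match to it in this window. A match is a run of letters and was not tested as a binding site.

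Slc3a2, the heavy chain that the light chains need to reach the membrane, rose. Its WT values were 167, 126, 149 and 133, and its KO values were 286, 299, 352 and 226. The lowest KO library, replicate 4, was still above every WT library. The means were 144 ± 18.6 and 290.4 ± 51.7 (SD, n = 4 each), a 2.02-fold difference with a log2 fold change of 1.0 (SE 0.133, 95% confidence interval 0.70 to 1.3, adjusted p = 0.000287). The gene lies at chr19:8706882-8723369 on the minus strand.

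Slc7a5 (LAT1), the light chain that takes up leucine and other large neutral amino acids, split the KO group. The WT values were 71.8, 82.9, 93.8 and 73.2. In KO they were 139.8, 138 and 174 in replicates 1 to 3, all above WT, and 65.8 in replicate 4, below all 4 WT libraries. With that library the log2 fold change was 0.60 (SE 0.253, 95% confidence interval 0.04 to 1.17, adjusted p = 0.0878) and not called. Without it the value was 0.90 (adjusted p = 0.000375), without both libraries numbered 4 it was 0.86 (adjusted p = 0.000707), and with the replicate number as a block it was 0.60 (adjusted p = 0.0140). The call on Slc7a5 therefore turned on whether KO replicate 4 was kept and on whether the libraries were paired by number. The gene lies at chr8:121881150-121907694 on the minus strand.

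Slc7a7 (y+LAT1), which exchanges cationic for neutral amino acids together with Slc3a2 and is mutated in lysinuric protein intolerance, was the carrier that fell. WT values were 41.7, 45.0, 41.2 and 46.7, and KO values were 29.5, 27.7, 31.4 and 31.1. The libraries within a group lay close together, and the highest KO library was below the lowest WT library. Means of 43.6 ± 2.62 and 29.9 ± 1.72 (SD, n = 4 each) gave a log2 fold change of -0.53 (SE 0.0666, 95% confidence interval -0.68 to -0.38, adjusted p = 0.000213). Slc7a7 (chr14:54369442-54417780, minus strand) overlaps Oxa1l on the other strand, and the strand setting of the counting is not given in the sources used here. Oxa1l, a mitochondrial inner membrane insertase, moved the other way, from 46.4 ± 3.45 to 55.4 ± 3.10 (log2 fold change 0.25, adjusted p = 0.0164).

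The cationic amino acid transporters were both higher. Slc7a2 (CAT2), the arginine carrier that activated macrophages are known to use, had the highest level per kb of exons of the 10 genes. Its values were 1056, 1028, 1002 and 943 in WT and 1891, 2141, 1985 and 1699.9 in KO. The spread within each group was small beside the gap between them. Its log2 fold change was 0.93 (SE 0.0747, 95% confidence interval 0.77 to 1.10, adjusted p = 1.66e-05), from 1007 ± 48.2 to 1929 ± 184 (SD, n = 4 each). Slc7a1 (CAT1), the broadly used arginine and lysine carrier, had 32.2, 43.2, 46.6 and 31.5 in WT and 114, 119.9, 157 and 49.3 in KO. KO replicate 4 stood far below the other KO libraries and just above the highest WT library. For Slc7a1 the log2 fold change was 1.40 (SE 0.307, 95% confidence interval 0.71 to 2.09, adjusted p = 0.00541), from 38.4 ± 7.68 to 110.2 ± 44.8. Slc7a2 lies at chr8:40862396-40922308 on the plus strand and Slc7a1 at chr5:148327410-148399904 on the minus strand.

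Among the sodium-dependent carriers of small neutral amino acids, Slc38a2 (SNAT2), which concentrates alanine, serine and glutamine in the cell, rose. Its values were 170.2, 178, 161 and 219 in WT and 254, 319, 318 and 257 in KO. WT replicate 4 was the highest of its group, but no KO library fell below it. The log2 fold change was 0.65 (SE 0.112, 95% confidence interval 0.40 to 0.91, adjusted p = 0.00139), from 182 ± 25.8 to 287 ± 36.3 (SD, n = 4 each). Slc38a2 lies at chr15:96687392-96699730 on the minus strand.

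Slc1a5 (ASCT2), an exchanger known for glutamine uptake, gave no call. WT values were 53.9, 62.5, 67.9 and 53.9, and KO values were 56.9, 53.5, 55.5 and 38.1. KO replicates 1 and 3 lay within the WT range, replicate 2 just under it, and replicate 4 well below it. The difference was -0.23 on the log2 scale (SE 0.131, 95% confidence interval -0.52 to 0.06, adjusted p = 0.198). It was -0.10 (adjusted p = 0.420) without KO replicate 4. The lower end of the interval is as large a fall as that of Slc7a7, and the upper end is a rise of 0.06. Slc1a5 lies at chr7:16781340-16798274 on the plus strand.

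Slc1a4 (ASCT1), a carrier of alanine, serine and cysteine, was barely detected in WT, with values of 0.0592, 0.347, 0.438 and 0.350 from 1, 9, 11 and 10 reads. In KO it had 2.36, 1.14, 2.16 and 1.77, from 51, 33, 42 and 38 reads. The groups did not overlap, and WT replicate 1 was under the floor of 3 reads. The mean rose from 0.299 ± 0.165 to 1.86 ± 0.538 (SD, n = 4 each), a ratio of 6.22. On the log2(value + 1) scale, which shrinks changes of low genes, the log2 fold change was 1.13 (SE 0.183, adjusted p = 0.00101). It ranged from 0.37 with a pseudocount of 5 to 2.92 with no further pseudocount, and was called in both cases. Slc1a4 lies at chr11:20302180-20332713 on the minus strand.

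Slc6a9 (GlyT1), a glycine transporter, showed the same kind of pattern at a level near the floor in WT. Its WT values were 0.335, 0.347, 0.438 and 0.117, from 8, 9, 11 and 3 reads. The KO values were 3.51, 4.60, 4.14 and 1.03, from 76, 135, 81 and 22 reads. KO replicate 4 again stood apart from the other KO libraries, at a level still above all WT libraries. The ratio of means was 10.7 (0.309 ± 0.136 to 3.32 ± 1.59, SD, n = 4 each), and the log2 fold change was 1.63 (SE 0.295, adjusted p = 0.00189), with 0.63 and 3.38 at the same pseudocount settings as for Slc1a4. The gene (chr4:117834506-117875198, plus strand) overlaps Ccdc24 and B4galt2 on the other strand, which are not among the listed genes.

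**Figure D2:**
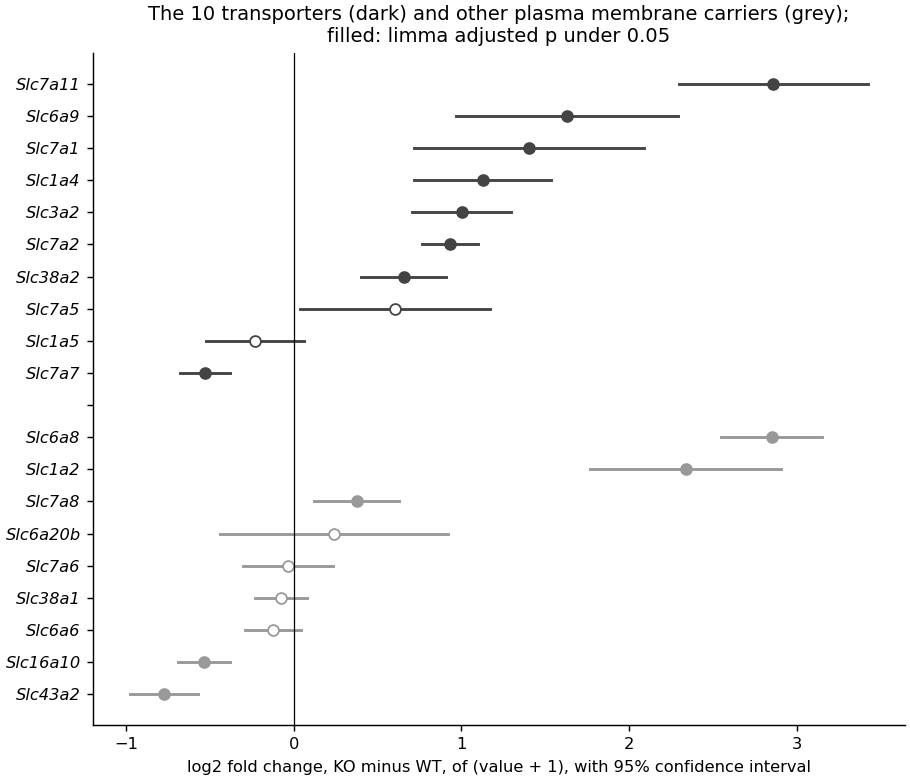
Log2 fold change of KO over WT on the log2(value + 1) scale with its 95% confidence interval, for the 10 carriers (dark) and 9 other plasma membrane amino acid carriers (grey), filled where the adjusted p is under 0.05. The dark points reach from -0.53 for Slc7a7 to 2.86 for Slc7a11, and the intervals of Slc1a5 and of 4 other carriers cross 0.

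Whether related carriers changed by different amounts was tested in 7 pairs, as the log2 ratio of both genes in each library. The tests were two-sided exact permutation tests of 4 against 4 libraries, whose smallest possible p is 0.0286, adjusted over the 7 pairs. On the log2 scale, the ratio of Slc7a11 to its heavy chain Slc3a2 was 1.86 higher in KO (SE 0.254), that of Slc7a11 to Slc7a5 2.26 higher (SE 0.362) and that of Slc7a11 to Slc7a7 3.39 higher (SE 0.341). The ratio of Slc7a7 to Slc3a2 changed by -1.53 (SE 0.190). The ratio of Slc1a4 to its relative Slc1a5 was 1.36 higher (SE 0.192), and 0.58 or 2.20 higher with a pseudocount of 5 or 0.25. Since Slc1a4 entered the test through the KO libraries alone, this last difference is given as a description and supports nothing. Each of these 5 differences had an exact p of 0.0286 and an adjusted p of 0.04, with no overlap between the groups. Slc7a7 fell, and Slc7a11 and Slc3a2 rose, without overlap between the genotypes. Its ratios with these genes were therefore bound to separate, and their exact p was fixed by the single-gene values. These 2 tests are no further support, though they entered the adjustment over the 7 pairs. The adjusted p of 0.04 rests on all 5 tests sharing the smallest p, and it would be higher without the tests set aside here. It therefore cannot be read as a pass for the ratios of Slc7a11 to Slc3a2 and to Slc7a5 alone. Slc7a11 gained on its heavy chain and on both other light chains, and Slc7a7 lost against the heavy chain.

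The remaining 2 pairs did not pass the test. The ratio of Slc7a5 to Slc3a2 changed by -0.40 (SE 0.227, exact permutation p = 0.143, adjusted p = 0.167), and by -0.52 (adjusted p = 0.0333) when WT replicate 1 was left out. The ratio of Slc7a1 to Slc7a2 changed by 0.47 (SE 0.333, exact permutation p = 0.2, adjusted p = 0.2), and by 0.75 (adjusted p = 0.0333) without KO replicate 4. Single libraries therefore decided these 2 calls. When the libraries were paired by number, the exact sign-flip test over 4 pairs could not reach the threshold for any ratio, and the 5 differences above had an adjusted p of 0.175.

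Levels were compared between genes per kb of exons. In WT the order was Slc7a2 (110.2), Slc3a2 (40.7), Slc7a5 (21.7), Slc38a2 (20.6), Slc1a5 (14.3), Slc7a7 (13.2), Slc7a1 (3.33), Slc7a11 (1.81), Slc1a4 (0.0760) and Slc6a9 (0.0602). The neighbours Slc7a5 and Slc38a2, Slc1a5 and Slc7a7, and Slc1a4 and Slc6a9 overlapped between libraries. Slc7a2 and Slc3a2 kept the first places in KO, at 211 and 82.3. Slc7a11 moved from the eighth to the fifth place, at 13.2 per kb, next to Slc1a5 at 12.2, Slc7a1 at 9.56 and Slc7a7 at 9.03. Each of these 4 genes overlapped with its neighbours in that order, whereas Slc7a11 (10.1 at the lowest) lay above Slc7a7 (9.48 at the highest) in all 4 KO libraries. The cystine carrier thus stood among the lowest of the 10 in WT and at the level of Slc1a5 in KO. With the length of the longest coding transcript in place of all exons, Slc38a2 came before Slc7a5 in both groups.

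A description of the light chain mRNA that could pair with Slc3a2 was added after the values had been seen. The 5 light chains listed were Slc7a5, Slc7a6, Slc7a7, Slc7a8 and Slc7a11, of which 3 belong to the 10 carriers. Per kb, Slc7a11 made up 4.64, 3.17, 4.90 and 2.31% of their sum in WT and 14.3, 17.4, 20.4 and 24.1% in KO. The share of Slc7a7 went from 27.6 ± 2.74% to 13.4 ± 3.56% (SD, n = 4 each). Slc7a5 was the largest part in both groups, at 45.2 ± 2.70% and 48.2 ± 8.79%, with 35.1% in KO replicate 4. The sum of the 5 light chains was 47.8 ± 3.21 in WT and 70.6 ± 15.6 in KO, and its ratio to Slc3a2 was 1.19 ± 0.183 and 0.852 ± 0.0438. These are mRNA levels and give no amounts of assembled transporter.

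**Figure D3:**
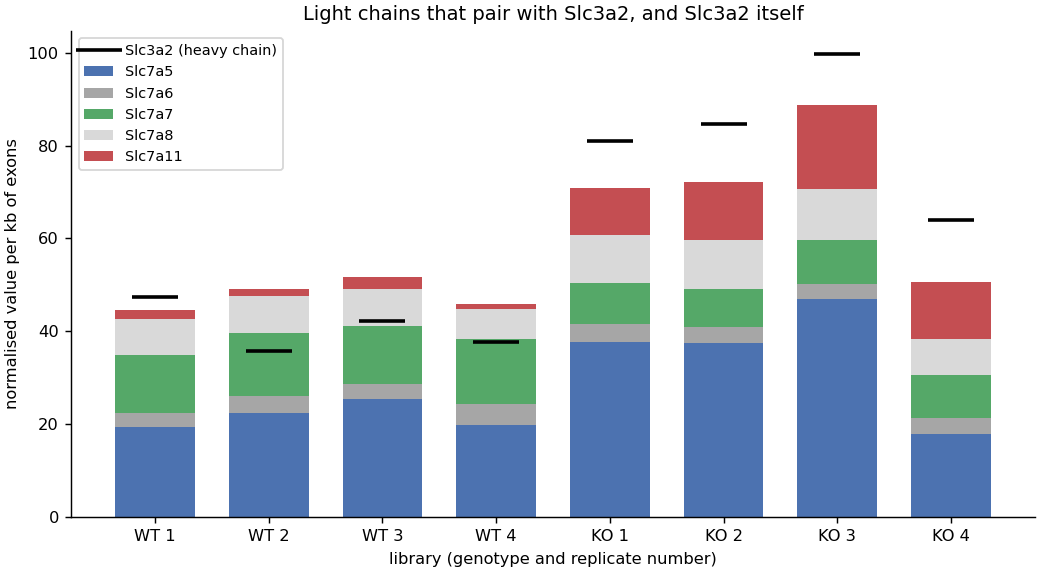
Stacked normalised value per kb of exons (linear axis from 0) of the 5 listed light chains in each library, with the heavy chain Slc3a2 as a black line. The Slc7a11 part is 2.31 to 4.90% of the bar in WT and 14.3 to 24.1% in KO, and the Slc3a2 line lies above the bar in all 4 KO libraries and in WT replicate 1.

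KO replicate 4 was the lowest KO library for 6 of the 10 carriers, and for 31.3% of all tested genes. Among genes called higher it was the lowest KO library for 4 of the 7 carriers and for 45.8% of all 2279 such genes. The gap was uneven between carriers. Relative to the mean of the other 3 KO libraries, its value was 0.253 for Slc6a9, 0.378 for Slc7a1 and 0.437 for Slc7a5. It was 0.847 for Slc7a2, 0.897 for Slc7a11, 0.938 for Slc1a4 and 1.05 for Slc7a7. The same ratio had a median of 0.949 over all genes called higher, and 0.0439% of these genes were lower than Slc6a9 and 0.219% lower than Slc7a1. Slc7a11 and Slc1a4 thus lay near that median, and Slc6a9 and Slc7a1 near the lower end of these genes. The genes were called with KO replicate 4 in the fit, so genes low in that library were less likely to be among them. Slc7a5 was not called and is not among them, so its place beside them is a description only.

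Among genes outside transport that respond to ATF4, the same library was the lowest KO library for 17 of the 21 called higher. The median ratio of these 21 genes was 0.647, with a range from 0.282 to 1.37. At the low end were Chac1 (0.282), Trib3 (0.287) and Mthfd2 (0.440), followed by Psat1 (0.450) and Asns (0.490). Atf5, with the lowest p of the list, was at 0.925 and Phgdh, the first enzyme of serine synthesis, at 0.991, and Gdf15, a secreted ATF4 target chosen after its values were seen, was at 1.37. Tfam itself was 3.52 in KO replicate 4 and 4.29 to 5.08 in the other KO libraries. What set the library apart was not tested.

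**Figure D4:**
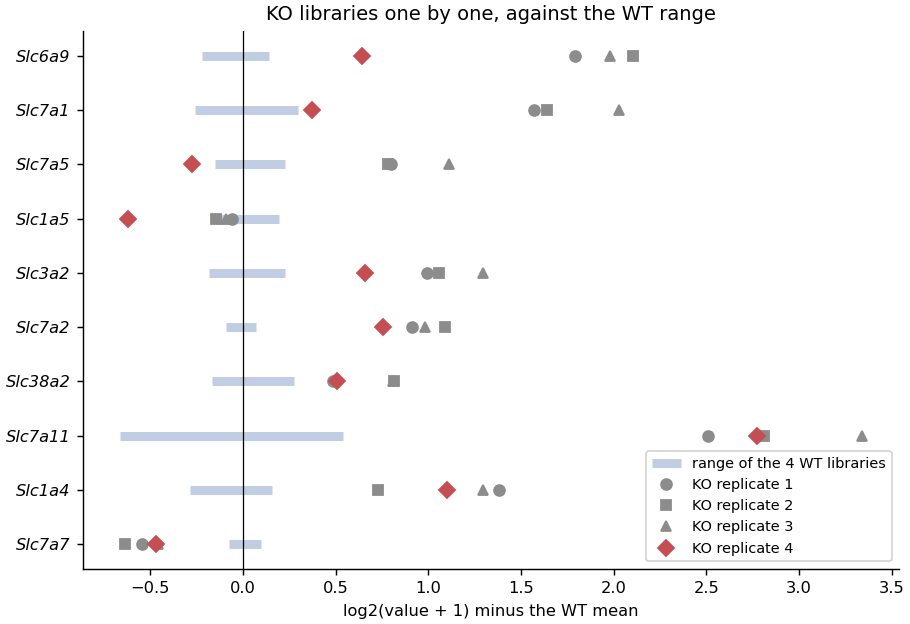
Each KO library as log2(value + 1) minus the WT mean, for the 10 carriers, with KO replicate 4 as a red diamond and the range of the 4 WT libraries as a bar. The diamond stands apart to the left for Slc6a9, Slc7a1, Slc7a5 and Slc1a5 and among the other KO libraries for Slc38a2, Slc7a11, Slc1a4 and Slc7a7.

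Of 26 other plasma membrane amino acid carriers 9 were listed, of which 3 were called higher, 2 lower and 4 neither. The median log2 fold change was -0.03. Slc6a8, the creatine transporter, had the change closest in size to that of Slc7a11, from 1.40 ± 0.315 to 16.3 ± 2.23 (log2 fold change 2.85, adjusted p = 1.14e-06). Slc1a2, a glutamate transporter, was at 0.0592, 0.0183, 0.324 and 0.05 in WT, with 3 libraries under the floor of 3 reads. In KO it was at 4.29, 6.64, 6.28 and 2.32 (adjusted p = 9.13e-05). Since Slc1a2 was under 1 in every WT library, it entered the test through the KO libraries alone. Its call is no support for a difference in these carriers. The third carrier to rise was Slc7a8 (LAT2), from 37.7 ± 3.67 to 49.5 ± 7.12 (log2 fold change 0.38, adjusted p = 0.0257). Slc43a2 (LAT4), a sodium-independent carrier of large neutral amino acids, fell from 153 ± 13.1 to 89.2 ± 9.64 (log2 fold change -0.77, adjusted p = 0.000133). Slc16a10 (TAT1), which carries aromatic amino acids, fell from 196 ± 15.9 to 135 ± 7.93 (log2 fold change -0.53, adjusted p = 0.000258). A share of 3 (Slc1a2 included) and 2 of 9 compares with 18.7% and 20% of all tested genes. In the lysosomal membrane 4 of 9 listed carriers rose and 1 fell, the peptide and histidine transporter Slc15a3 (383 ± 22.3 to 279 ± 19.4, adjusted p = 0.000403).

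ATF4-responsive genes outside transport moved in the same direction as most carriers. Of 33 genes 28 were listed, 21 rose and 0 fell, and the median of their log2 fold changes was 0.87. The 21 include Chac1, which was under 1 in every WT library and entered the test through the KO libraries alone. Asns, the asparagine synthetase, rose from 10.6 ± 2.91 to 113 ± 36.2 (log2 fold change 3.26, adjusted p = 1.38e-05). Trib3, a pseudokinase induced by ATF4, rose from 2.33 ± 0.823 to 48.9 ± 25.5 (log2 fold change 3.75, adjusted p = 7.71e-05), and the factor Atf5 from 31.7 ± 6.08 to 138 ± 13.0 (log2 fold change 2.10, adjusted p = 3.91e-06). Atf4 mRNA itself rose from 142 ± 13.6 to 277 ± 49.5 (log2 fold change 0.95, adjusted p = 0.000276). Of 20 tested NRF2 targets, 12 rose and 5 fell, with a median of 0.26. For both lists the shares over all tested genes were 18.7% higher and 20% lower. The glutathione transferase Gstm1 was the target with the lowest p (171 ± 8.68 to 526 ± 21.6, adjusted p = 1.55e-07), and Hmox1, the heme oxygenase, rose from 153 ± 10.7 to 329 ± 72.7 (adjusted p = 0.000179).

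Genes that use the carried amino acids differed by pathway in their counts. In glutathione and cysteine handling 5 of 11 rose and 3 fell. Gclc, the catalytic subunit of the enzyme that joins glutamate and cysteine, rose from 45.7 ± 2.07 to 61.0 ± 3.40 (adjusted p = 0.000538), and Chac1, which degrades glutathione, from 0.466 ± 0.278 to 7.81 ± 4.65 (adjusted p = 0.00078). Chac1, counted among the 5, was under 1 in every WT library and entered the test through the KO libraries alone. Its call supports nothing. Ggt5, which cleaves glutathione conjugates outside the cell, fell from 8.52 ± 1.45 to 3.52 ± 0.596 (adjusted p = 0.000282). In arginine and polyamine use 7 of 11 rose and 0 fell, among them Odc1, the ornithine decarboxylase (85.0 ± 10.2 to 129 ± 13.2, adjusted p = 0.00102), and its activator Azin1 (175 ± 14.1 to 331 ± 49.2, adjusted p = 0.000159). In serine and glycine supply 5 of 10 rose and 0 fell, led by Mthfd2, a mitochondrial folate enzyme, from 22.9 ± 5.42 to 143 ± 47.9 (adjusted p = 8.52e-05).

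Glutamine and glutamate use gave 3 genes higher and 3 lower of 10, with a median of -0.03, beside 18.7% and 20% of all tested genes. The cytosolic transaminase Got1 rose from 18.0 ± 1.75 to 46.2 ± 6.59 (adjusted p = 2.71e-05), whereas its mitochondrial counterpart Got2 fell from 94.2 ± 6.45 to 75.7 ± 2.40 (adjusted p = 0.00269). Glul, the glutamine synthetase, fell from 1068 ± 113 to 684 ± 72 (adjusted p = 0.000538). In the use of branched-chain and aromatic amino acids 5 of 10 rose and 2 fell. Bcat2, the mitochondrial branched-chain transaminase, rose from 31.9 ± 3.51 to 56.5 ± 4.36 (adjusted p = 8.28e-05), and Mccc2, a subunit of an enzyme of leucine breakdown, fell from 79.3 ± 7.93 to 41.0 ± 3.47 (adjusted p = 3.44e-05).

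Of 19 tested genes of amino acid sensing at mTORC1, 6 rose and 3 fell, beside 18.7% higher and 20% lower of all tested genes. Rragd, a Rag GTPase, rose from 0.445 ± 0.181 to 4.05 ± 0.234 (adjusted p = 9.26e-06), and Sesn2, a leucine sensor and ATF4 target, from 21.8 ± 1.29 to 46.9 ± 16.1 (adjusted p = 0.00559). Rragd was under 1 in every WT library and entered the test through the KO libraries alone, so its call supports nothing. Among 19 surface partners and regulators of the carriers 2 rose and 5 fell, beside the same shares. The counts of these lists were not tested against the shares. Txnip, an arrestin known to promote removal of glucose transporters from the cell surface, fell from 986 ± 259 to 134 ± 35.4 (log2 fold change -2.87, adjusted p = 1.01e-05), and its relative Arrdc4 from 152 ± 8.22 to 60.7 ± 10.4 (adjusted p = 1.44e-05). Cd44, a surface protein known to bind and hold Slc7a11 in tumour cells, fell from 2703 ± 123 to 2122 ± 173 (adjusted p = 0.00337). The cell cycle list fell in full, 20 of 20 (median -1.34 on the log2 scale), and its part in the transporter differences was not tested.

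**Figure D5:**
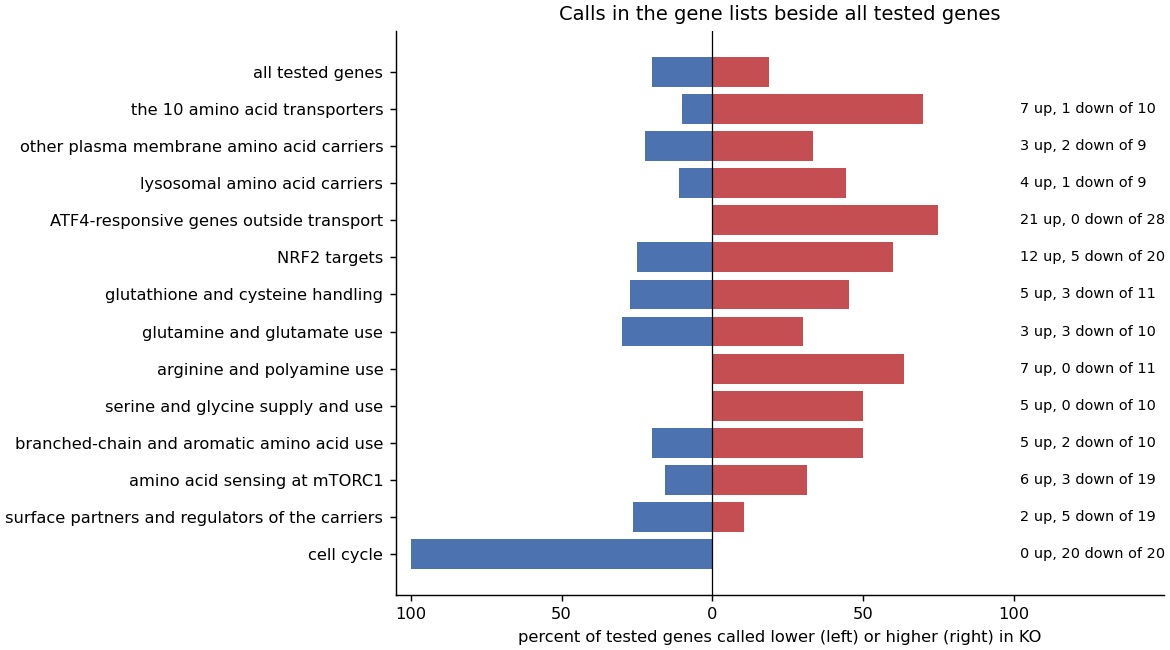
Percent of the tested genes of each list called lower (blue, left) or higher (red, right) in KO, with the counts at the right and all tested genes in the top row. The 10 transporters reach 7 higher and 1 lower, and the ATF4-responsive genes 21 higher and 0 lower of 28, beside 18.7% and 20% of all tested genes. Slc1a4, Slc6a9, Slc1a2, Chac1 and Rragd are counted as higher but entered the test through the KO libraries alone. The lists were chosen with earlier results of these data known.

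Genes with the profile most like that of Slc7a11 were sought among 6080 genes with an above-median level, by the root mean square distance between centred log2(value + 1) profiles over the 8 libraries. The nearest were Mreg (distance 0.269), Myo5a (0.314), Igf1 (0.315), Cxcr2 (0.357) and Ceacam1 (0.363). Mreg, melanoregulin, went from 12.9 ± 2.47 to 90.6 ± 6.87 and Igf1, the insulin-like growth factor, from 14.4 ± 5.75 to 83.0 ± 16.6. For Slc7a7 they were Fam217b (0.0327), Far1 (0.0555), Txndc5 (0.0595), Nudt4 (0.0596) and Cd47 (0.0613). Cd47, the surface signal against phagocytosis, went from 1019 ± 25.5 to 720.2 ± 30.4. All these distances rest mainly on the shared difference between the genotypes and are given as a description.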

How the data were processed

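Polyadenylated RNA of 4 WT and 4 KO pools was sequenced with a kit that keeps strand, per the labels' protocols. The sample titles give genotype and replicate number. The tools in the submitters' processing notes are RSEM 1.3.1, limma, cutadapt 1.7.1 and CASAVA 1.8.2, with GRCm38 as genome. The aligner was not given in the sources used here, nor were the annotation and the strand setting. For each library the authors deposited a normalised signal value per gene. The values have the form of a whole read number plus 0.5 over a scaled library size, and read numbers came out whole for 100% of values at a tolerance of 0.01. These served for depth and floors and entered no test.

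Genes that reached a value of 1 in 4 or more libraries were tested on the log2(value + 1) scale by limma 3.58.1 under R 4.3.3 (moderated variances with a trend, two-sided, Benjamini-Hochberg over all tested genes, adjusted p under 0.05). The filter left out 204 genes and none of the 10 carriers. Ratios of carriers were tested by exact permutation in Python 3.11.15 with SciPy 1.17.1. Only the limma steps were tested on simulated data, with the same SD for all genes and no pairing of libraries. Gene positions and exon lengths come from the GENCODE annotation of GRCm38, and promoter windows from RefSeq. The labels call the 8 libraries separate pools, so each value averages over the mice of a pool, and p-values measure the spread between pools.

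WT and KO libraries with the same number deviated together. The correlations of their deviations from the group means, across genes, were 0.363, 0.286, 0.394 and 0.431, those of differently numbered libraries ranged from -0.374 to 0.0917, and each of the 8 libraries was closest to its own number. By the rule used here, every correlation over 0.1, the numbers pair the libraries. The reported fit has no block, and the blocked value is given where it changes a call.

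The carriers and gene lists were chosen with earlier results of these data known. Named genes were the 10 carriers, up to 4 genes of each other list by adjusted p, and the 5 genes nearest in profile to the called carriers with the greatest rise and fall. Itgax, Car4, Adgre1, Chil3, C1qa, C1qb, Ccr2, Nr4a1, Fcgr4, Slc7a8, Oxa1l and Gdf15 were named outside this rule, with their values known. Alternatives were other filters, pseudocounts, scalings, no variance trend, the block and leaving out libraries. No further pseudocount and leaving out both libraries numbered 4 were added after seeing the data.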

Additional observations from a re-analysis of the deposited data

How the results depend on the processing

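Over 18 alternatives of the fit, 7 carriers were called higher in most settings, 8 with the replicate block, without KO replicate 4 or without both libraries numbered 4, where Slc7a5 was added, and 5 when a value of at least 8 was asked for, where Slc1a4 and Slc6a9 were not tested. The count of carriers called lower was 1 in each. All genes called ranged from 3876 to 5682 (4708 as reported), and the other plasma membrane carriers from 2 to 3 in each direction. Of 178 values of single carriers, 175 kept their side of the threshold, 0 reversed and 3, all for Slc7a5, crossed into a call. In the pairing by replicate number (block), the ratio differences were the same by construction, 2.26 and 1.86 for Slc7a11 over Slc7a5 and Slc3a2, -1.53 for Slc7a7 over Slc3a2, 1.36 for Slc1a4 over Slc1a5 and 3.39 for Slc7a11 over Slc7a7, each with an adjusted p of 0.175. With pseudocounts of 5 and 0.25 the difference for Slc1a4 over Slc1a5 was 0.58 and 2.20. In the fit of single carriers the block changed no other call than that of Slc7a5. The ratio differences named above lost their calls under the pairing, where the test could not reach the threshold. Leaving out each library in turn, the ratio of Slc7a5 to Slc3a2 changed by -0.52 to -0.22 and that of Slc7a1 to Slc7a2 by 0.28 to 0.75. The size of the change of Slc1a4 and Slc6a9 depended on the pseudocount, from 0.37 to 2.92 and from 0.63 to 3.38. Slc1a4 and Slc6a9 rest on 1 to 11 reads per WT library, and depth limits how low their WT level can be read.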
